A study of Mus musculus with 32 samples.

Results

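4 genes of spleen B cells and of the follicles that house them are described here in mice cloned by nuclear transfer: Ms4a1, Plac8, Coch and Cd24a. They were picked from the 9026 genes of the array because of their ratios in the spleen of wildtype clones, so those ratios are given as a description with no test. The 4 genes were read from 5 probes of the array, 1 each for Ms4a1, Plac8 and Coch and 2 for Cd24a, whose values were averaged. In the wildtype clones' spleens Ms4a1, Plac8 and Coch lay above the reference and Cd24a below it, in 4 of 4 mice each. The test of the same ratios in the spleens of the Dll1 clones called none of them, and 0 of all 15879 features (0%).

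The spleen's white pulp is organised into follicles, where B cells gather on a mesh of follicular dendritic cells, and a marginal zone at the rim, where another class of B cells sits. Marginal zone B cells need the receptor Notch2 and its ligand Dll1, which stromal cells of the spleen present to them, and mice with less of either have fewer of these cells. The red pulp around the follicles holds erythrocytes and, in mice, erythroid precursors. Ms4a1 encodes CD20, a surface protein of mature B cells. Plac8 encodes a small cysteine-rich protein that is abundant in several lymphoid and myeloid cells, marginal zone B cells among them. Coch encodes cochlin, a secreted matrix protein known from the inner ear that follicular dendritic cells also make. Cd24a encodes the heat stable antigen CD24, a lipid-anchored surface protein of immature B cells and also of erythroid cells.

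The study took liver and spleen of 129/SvJ males aged 18 to 19 weeks. There were 4 groups of 4 mice: nuclear transfer clones labelled "Dll1 cloned" and clones labelled "wt cloned", with both organs from the same 4 animals of each genotype. Each clone was set against pooled RNA of conventionally bred males of the same strain and age, heterozygous for Dll1 on the arrays of the Dll1 clones and wildtype on those of the wildtype clones. The Dll1 clones were thus compared with pooled Dll1 animals and not with wildtype ones, and the labels do not state whether the clones are heterozygous too. The sources used here do not describe the Dll1 allele or the donor cell lines behind the clones. The pool is given as 6 animals in the protocol and by 4 mouse identifiers in the labels. With 2 arrays per mouse and organ, on which Cy3 and Cy5 were exchanged, there were 32 arrays.

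Every value is a log2 ratio, read as clone over pool, so that 0 means no difference from the pool and 1 a doubling. A ratio carries no expression level, so neither the levels of these genes nor the identity of the organs could be checked against marker genes, and a larger number of cells of a type cannot be told apart from more RNA per cell. The arrays gave ratios of the same sign convention only if the submitters had turned the dye-swapped arrays, which was not settled. The mean ratios of the 2 dye orientations were correlated across features, with the probes of a gene averaged. The correlations were -0.46 and -0.326 in the spleens of wildtype and Dll1 clones and -0.779 and -0.371 in their livers. For that reason the mean with the Cy3 arrays turned is given beside that of each of the 4 genes. All correlations between genes, and the values of single genes other than these 4, are on the reading as deposited. Gene names rest on a shift of 11 rows between the value table and the platform's names. With that shift the 6 probes of Hba-a1, an alpha globin gene, lay between -0.46 and -0.33 in wildtype spleen and between -1.10 and -1.0 in Dll1 spleen, while without it they spread from -1.80 to 0.45 and from -1.54 to 0.24. The 2 Cd24a probes correlated at 0.93 over the 8 spleens. Agreement between probes of the same gene had been used to find the shift, so these values are no separate check of the names. None of the members' values was missing.

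Promoter sequences were at hand for 2 of the 4 genes, Coch and Plac8, and not for Ms4a1 and Cd24a. The stretches before the transcription starts of Coch and Plac8 are shown because Notch signals act on promoters through the DNA-binding factor RBPJ. Both are the 250 bases before the start in RefSeq on build GRCm38.p6, with capitals for the matches of 3 motifs searched on both strands: the RBPJ core TGGGAA, the octamer ATTTGCAT of B cell promoters and the PU box GAGGAA. Coch lies on the plus strand, at chr12:51593091-51593340, and the stretch of Plac8 is on the minus strand, at chr5:100572206-100572455.
Coch: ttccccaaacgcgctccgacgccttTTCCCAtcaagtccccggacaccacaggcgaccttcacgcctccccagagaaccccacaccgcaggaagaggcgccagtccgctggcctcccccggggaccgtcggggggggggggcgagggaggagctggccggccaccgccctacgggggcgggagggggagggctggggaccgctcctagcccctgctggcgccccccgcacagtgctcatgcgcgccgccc
Plac8: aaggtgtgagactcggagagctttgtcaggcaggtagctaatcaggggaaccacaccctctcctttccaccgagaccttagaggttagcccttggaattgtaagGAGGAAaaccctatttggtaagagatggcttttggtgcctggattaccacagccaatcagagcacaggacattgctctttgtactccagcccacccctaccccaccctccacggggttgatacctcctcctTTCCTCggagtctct
Coch held the RBPJ core read on the opposite strand, TTCCCA, 225 bases before its start. Plac8 held the PU box at 2 places, as GAGGAA 146 bases and as TTCCTC 15 bases before its start, and a second RefSeq start of Plac8 held none of the motifs. Over 32851 promoter stretches of the same length, 21.6% held the RBPJ core, 23.3% the PU box and 1.6% the octamer, on either strand. A match of these letters is a description of the sequence and shows no binding.

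Ms4a1, the CD20 gene, had a mean ratio in wildtype spleen as high as that of Coch. Its values were 0.81, 0.66, 0.76 and 0.59 in mice 1 to 4, a mean of 0.71 ± 0.10 (SD, n = 4 mice), or 1.63 times the pool. All 4 mice lay within 1.5 to 1.75 times the pool, and the ratio was above 0 on 8 of 8 arrays. Over all features measured on every array of this group, 0.622% were above 0 on 8 of 8 arrays and 9.19% were above 0 in 4 of 4 mice, and since the choice used this contrast nothing is read from these shares. The arrays with the mouse in Cy5 averaged 1.03 ± 0.10 and those with it in Cy3 0.38 ± 0.22 (SD, n = 4 arrays each), without overlap. With the Cy3 arrays turned the mean was 0.32.

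In Dll1 spleen Ms4a1 lay at 0.46, 0.39, 0.37 and 0.55. The mean of 0.44 ± 0.08 (SD, n = 4 mice) was 1.36 times the pool, all 4 mice were above 0, and so were 7 of 8 arrays. In that group 8.81% of features were above 0 in 4 of 4 mice. The moderated test of limma against 0 gave a standard error of 0.15 and an adjusted p of 0.826 over 15879 features (unadjusted p = 0.024), so Ms4a1 was not called. The test called 0% of all features there, 0 of 15879, with 783 at an unadjusted p under 0.05. Turned, the mean was 0.21 with an adjusted p of 0.526.

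In liver Ms4a1 was close to the pool. The wildtype livers had 0.11, 0.08, 0.04 and 0.12, a mean of 0.09 ± 0.04 (SD, n = 4 mice) with an adjusted p of 0.410 by limma. Although all 4 mice were above 0, as were 11.7% of features in that group, the dyes opposed each other: all Cy5 arrays were below 0 with a mean of -0.39 and all Cy3 arrays above 0 with a mean of 0.57. This split was seen in 17.3% of all features measured on every array of wildtype liver. Turned, the mean became -0.48 with an adjusted p of 3.155e-04, so the call and the sign depend on the direction of the Cy3 arrays. On that reading 9608 of 16948 features were called in wildtype liver, 56.7%, and 25% were called lower, so such a call does not set a gene apart. The Dll1 livers lay at 0.15, -0.05, 0.21 and -0.07, with a mean of 0.06 ± 0.14 (SD, n = 4 mice) and an adjusted p of 0.836, and turned the mean was 0.12 with an adjusted p of 0.491.

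**Figure D1:**
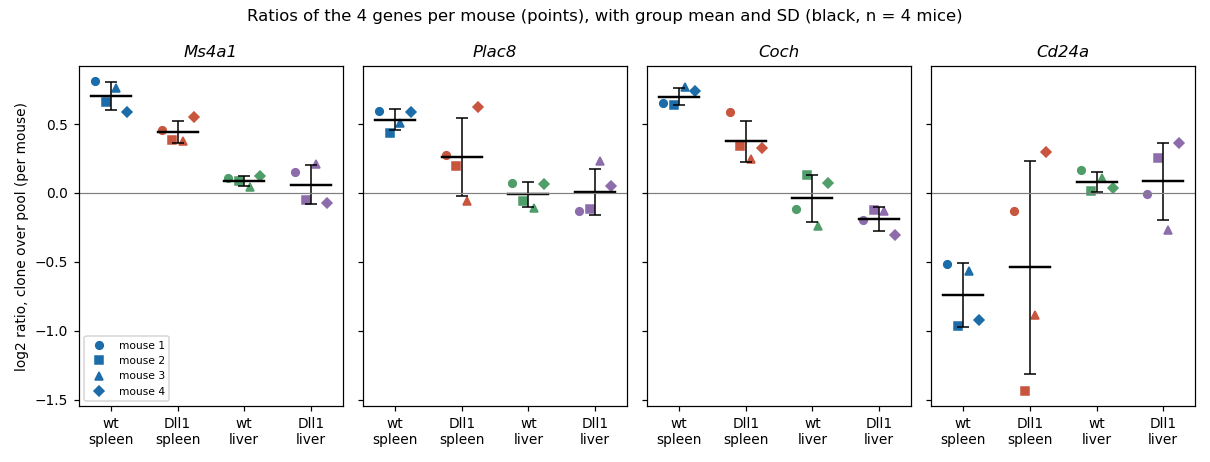
Log2 ratio of clone over pool (vertical axis) for Ms4a1, Plac8, Coch and Cd24a, 1 panel each, in the 4 groups (horizontal axis). Symbols are mice 1 to 4, each the mean of 2 dye-swapped arrays, and black bars are the group mean ± SD (n = 4 mice). Ms4a1, Plac8 and Coch stood highest in wildtype spleen, with means of 0.71, 0.53 and 0.70, and Cd24a spread widest in Dll1 spleen, from -1.44 to 0.30.

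Plac8, listed here with marginal zone B cells but abundant in other cells too, had ratios of 0.60, 0.43, 0.51 and 0.59 in wildtype spleen. The mean of 0.53 ± 0.08 (SD, n = 4 mice) was 1.45 times the pool, and 8 of 8 arrays were above 0. As with Ms4a1, the Cy5 arrays were higher, at 0.85 ± 0.05 against 0.22 ± 0.15 for the Cy3 arrays (SD, n = 4 arrays each). Turned, the mean was 0.32.

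In Dll1 spleen Plac8 was at 0.28, 0.20, -0.06 and 0.63. Mouse 3 was below the pool and mouse 4 above every wildtype spleen, and the mean was 0.26 ± 0.28 (SD, n = 4 mice). It was not called, with a standard error of 0.18 and an adjusted p of 0.826 by limma, and without mouse 4 the mean was 0.14. The mean here was made of opposite dyes: the Cy5 arrays lay between 0.09 and 1.31 and the Cy3 arrays between -0.26 and -0.06. Of all features in this group 3.69% were above 0 on all Cy5 and below 0 on all Cy3 arrays. Turned, the mean was 0.45, with an adjusted p of 0.261.

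In liver Plac8 stayed near 0. The wildtype livers had 0.07, -0.06, -0.11 and 0.07, a mean of -0.01 ± 0.09 (SD, n = 4 mice), and the Dll1 livers -0.13, -0.12, 0.23 and 0.05, a mean of 0.01 ± 0.17 (SD, n = 4 mice). Mice lay on both sides of the pool in both groups. The adjusted p values by limma were 0.954 and 0.984. Turned, the means were 0.11 in wildtype liver, with an adjusted p of 0.088, and 0.13 in Dll1 liver, with an adjusted p of 0.339.

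Coch, the cochlin gene, had the smallest spread between mice of the 4 genes in wildtype spleen. Its ratios were 0.66, 0.64, 0.77 and 0.74, a mean of 0.70 ± 0.06 (SD, n = 4 mice) or 1.62 times the pool. All 8 arrays were above 0, with the Cy5 arrays at 0.95 ± 0.20 and the Cy3 arrays at 0.45 ± 0.10 (SD, n = 4 arrays each). Turned, the mean was 0.25.

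In Dll1 spleen Coch lay at 0.59, 0.34, 0.25 and 0.32. It was the only one of the 4 genes with 8 of 8 arrays above 0 in this group, where 0.459% of all features were. The mean of 0.37 ± 0.15 (SD, n = 4 mice), 1.30 times the pool, had a standard error of 0.15 and an adjusted p of 0.826 by limma (unadjusted p = 0.050), and was not called. Turned, it was 0.09 with an adjusted p of 0.767.

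The livers did not share this. In wildtype liver Coch was at -0.12, 0.13, -0.24 and 0.07, with a mean of -0.04 ± 0.17 (SD, n = 4 mice) and an adjusted p of 0.843 by limma. As for Ms4a1, all Cy5 arrays of that group were below 0, with a mean of -0.67, and all Cy3 arrays above, with a mean of 0.59. Turned, Coch was called lower there, at -0.63 with an adjusted p of 8.82e-05, among the 25% of features called lower on that reading. In Dll1 liver Coch was below the pool in all 4 mice, at -0.20, -0.12, -0.13 and -0.31, where 9.9% of features were below 0 in 4 of 4 mice and 5.86% above. The mean of -0.19 ± 0.08 (SD, n = 4 mice) had an unadjusted p of 0.0080 and an adjusted p of 0.788 by limma, and it became 0.17 with an adjusted p of 0.117 when turned. The test called 0 of 16916 features in Dll1 liver, 0%, with 966 at an unadjusted p under 0.05.

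**Figure D2:**
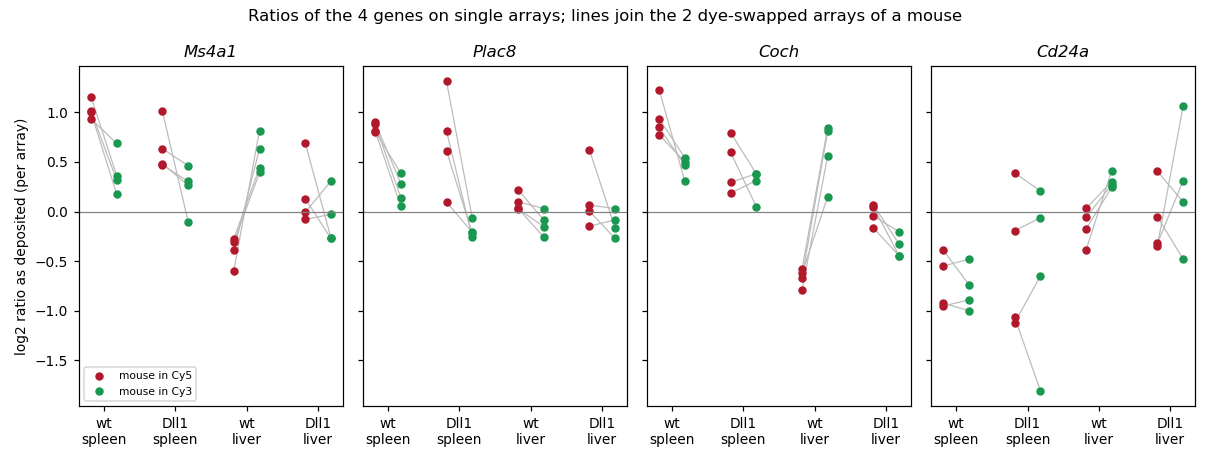
Deposited log2 ratio of single arrays (vertical axis) for the 4 genes in the 4 groups (horizontal axis), with the mouse labelled in Cy5 (red) or in Cy3 (green) and a line joining the 2 arrays of each mouse. In wildtype spleen Ms4a1, Plac8 and Coch lay above 0 in both dyes, and in wildtype liver the 2 dyes of Ms4a1 and Coch lay on opposite sides of 0.

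Cd24a was the member below the pool. In wildtype spleen its ratios were -0.52, -0.96, -0.56 and -0.92, a mean of -0.74 ± 0.23 (SD, n = 4 mice) or 0.598 times the pool. It was below 0 on 8 of 8 arrays, as were 0.589% of features, and in 4 of 4 mice, as were 7.06%; the choice used these values too. Averaged over its probes it had means of -0.70 in Cy5 and -0.78 in Cy3, so that turning the Cy3 arrays brought the mean to 0.04. The probes had dye gaps of opposite sign: the first was at -0.76 in Cy5 and -0.47 in Cy3, the second at -0.65 and -1.08. Over both dyes they gave -0.61 ± 0.27 and -0.87 ± 0.23 (SD, n = 4 mice).

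In Dll1 spleen Cd24a differed from mouse to mouse more than any other member. Mouse 2 was at -1.44, mouse 3 at -0.89, mouse 1 at -0.13 and mouse 4 at 0.30. As deposited, the Cy3 and Cy5 arrays gave -0.06 and -0.19 in mouse 1 and -1.81 and -1.06 in mouse 2. They gave -0.65 and -1.12 in mouse 3 and 0.21 and 0.39 in mouse 4. On single probes the dyes had opposite signs in mouse 1, and on the first probe also in mouse 4. What this 1 gene says of the dye direction was not tested. The range of the mouse means enclosed all 4 wildtype spleens, and 2 mice lay nearer to the pool than any of them. The mean of -0.54 ± 0.77 (SD, n = 4 mice) had a standard error of 0.31 and an adjusted p of 0.826 by limma; turned, it was 0.04 with an adjusted p of 0.915. Without mouse 2 the mean was -0.24 and without mouse 4 -0.82. In this group 7.58% of features were below 0 in 4 of 4 mice, and Cd24a, with 3 of 4, was not among them.

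In liver Cd24a had a smaller SD than in Dll1 spleen. The median SD over all features was smaller in liver too, at 0.087 in wildtype and 0.109 in Dll1 liver against 0.399 in Dll1 spleen. Cd24a was at 0.17, 0.01, 0.11 and 0.03 in wildtype liver, a mean of 0.08 ± 0.07 (SD, n = 4 mice), with an adjusted p of 0.489 by limma. Turned, it was called lower, at -0.23 with an adjusted p of 0.0069, again among 25% of all features. In Dll1 liver it was at -0.01, 0.25, -0.27 and 0.36, a mean of 0.09 ± 0.28 (SD, n = 4 mice), with an adjusted p of 0.860, and turned it was -0.16 with an adjusted p of 0.542. The wildtype liver test called 25 of 16948 features, 0.148%, all lower and no member among them, and 9% of features there were below 0 in 4 of 4 mice.

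The spleens of the 2 clone cohorts were set side by side without a test, since the wildtype values had chosen the genes and each cohort had its own pool. Ms4a1 ranged from 0.37 to 0.55 in Dll1 spleen and from 0.59 to 0.81 in wildtype spleen. The difference of its means was -0.26 with a standard error of 0.06. Coch ranged from 0.25 to 0.59 and from 0.64 to 0.77, with a difference of -0.32 ± 0.08 (SE). The differences of Plac8 and Cd24a were -0.27 ± 0.15 and 0.20 ± 0.40 (SE). The share of all features with separate ranges was not counted. Since the genes were picked on the wildtype values, the order of the cohorts is no finding. The spread between mice in Dll1 spleen was 3.64 times that of wildtype spleen for Plac8, 2.38 times for Coch and 3.31 times for Cd24a. For Ms4a1 it was 0.802 times, beside a median SD over all features of 0.399 in Dll1 and 0.257 in wildtype spleen. The wildtype spreads came from the contrast that picked the genes, so these ratios of spread are no finding either.

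The difference between organs was tested in the Dll1 clones alone, as spleen ratio minus liver ratio. Coch had the smallest p of the 4 genes, with a difference of 0.56 ± 0.13 (SE). All 4 spleens were above the pool and all 4 livers below it. Of all features, 8.81% were above 0 in 4 of 4 Dll1 spleens and 9.9% below 0 in 4 of 4 Dll1 livers. The share with both was not counted. The Coch difference had an unadjusted p of 0.0020 and an adjusted p of 0.455 by limma. Turned, it was -0.07 with an adjusted p of 0.796. Ms4a1 had a difference of 0.38 ± 0.13 (SE), with an adjusted p of 0.521. Plac8 had a difference of 0.25 ± 0.17 (SE) and Cd24a of -0.62 ± 0.36 (SE), with adjusted p values of 0.666 and 0.626. Leaving out 1 mouse gave 0.14 (without mouse 4) to 0.43 (without mouse 3) for Plac8, and -0.81 (without mouse 4) to -0.27 (without mouse 2) for Cd24a. Turned, the differences of Ms4a1, Plac8 and Cd24a were 0.08, 0.32 and 0.20. With the mouse as a block, since both organs came from the same animals, the adjusted p was 0.800 for Ms4a1, Coch and Cd24a and 0.812 for Plac8. The test called 0 of 15863 features, 0%, with 1389 at an unadjusted p under 0.05.

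The B cell genes of the array are given as a list. Of a list of 39 B cell genes 23 were measured here. In wildtype spleen 21 of the 23 lay above 0, with a median of 0.14, beside 53.1% of all features and a median of 0.01. In Dll1 spleen 17 of the 23 lay above 0, with a median of 0.13, beside 51.1% and 0.01, and 0 were called. The list holds Ms4a1 and Cd24a, which were its highest and lowest genes in wildtype spleen. Of the B cell receptor genes, Cd79b was at 0.12 in both spleens and Cd22, an inhibitory coreceptor, at 0.18 in wildtype and -0.11 in Dll1 spleen.

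Of the B cell genes that the naming rule took from Dll1 spleen, Ebf1, an early B lineage transcription factor, was at 0.47 ± 0.22 there and 0.39 ± 0.21 in wildtype spleen (SE of the fits, n = 4 mice). Tnfrsf13c, the receptor of the survival factor BAFF, was at 0.31 ± 0.16 and 0.28 ± 0.18 (SE). Both were above 0 in 4 of 4 Dll1 and 3 of 4 wildtype spleens. Bcl11a, a transcription factor of lymphoid progenitors, went below 0 in all 4 Dll1 spleens, at -0.29 ± 0.15, and was at 0.06 ± 0.10 in wildtype spleen (SE). The adjusted p was 0.826 for each of the 3 in Dll1 spleen by limma. Here and in the lists below, the rule took the genes with the smallest p in Dll1 spleen. Their distance from 0 there, and the order of the cohorts in them, is therefore no finding.

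Of 18 genes of marginal zone B cells and the Notch pathway, 12 were measured. 9 of them lay above 0 in wildtype spleen, with a median of 0.07, and 7 in Dll1 spleen, with a median of 0.02, and 0 were called in Dll1 spleen. Plac8 was the highest of the 12 in wildtype spleen. Notch2, the receptor itself, was above 0 in 4 of 4 mice of both cohorts, at 0.31 ± 0.09 in wildtype and 0.23 ± 0.15 in Dll1 spleen (SE). Dtx1, a Notch target gene, was at 0.20 ± 0.15 and 0.19 ± 0.16 (SE). S1pr1, a lipid receptor that guides lymphocytes through tissue, was at 0.07 ± 0.13 and, in the 3 Dll1 spleens that gave it a value, at 0.41 ± 0.19 (SE).

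Of the other Notch pathway genes on the list, Rbpj, the DNA-binding factor, was at -0.26 in wildtype and 0.02 in Dll1 spleen and Maml1, its coactivator, at -0.34 and -0.18. The target gene Hes1 was at 0.04 and -0.22, and Lfng, which modifies the receptor with sugars, at -0.06 and -0.01. The ligand gene Dll1 was at 0.25 and 0.15 in the spleens of wildtype and Dll1 clones and at -0.40 and -0.07 in their livers. The pool of the Dll1 clones carries a Dll1 allele too, so these ratios check no label.

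Of 20 genes of follicle stroma and follicular dendritic cells, 14 were on the array, and Cxcl13 and Cr2 were not among the named probes. 11 of 14 lay above 0 in wildtype spleen, with a median of 0.12, and 9 of the 13 tested in Dll1 spleen, with a median of 0.10 and 0 called. Coch was again the highest in wildtype spleen. Clu, which encodes clusterin, a secreted chaperone, was at 0.35 ± 0.09 in wildtype and 0.19 ± 0.15 in Dll1 spleen (SE). Mfge8, which bridges dying cells to phagocytes and is made by follicular dendritic cells, was at 0.17 ± 0.10 and 0.16 ± 0.15 (SE), above 0 in 4 of 4 mice of both cohorts. Vcam1, an adhesion molecule, was at 0.01 ± 0.09 in wildtype spleen and 0.39 ± 0.17 in Dll1 spleen (SE), with an adjusted p of 0.826.

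**Figure D3:**
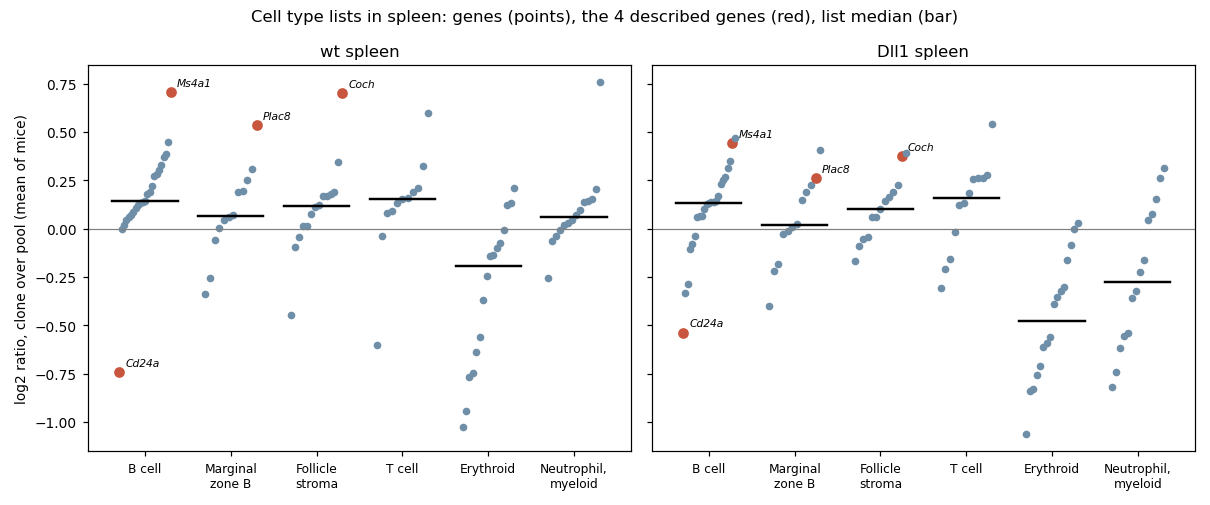
Mean log2 ratio of clone over pool (vertical axis, n = 3 or 4 mice) of each tested gene of 6 cell type lists (horizontal axis) in wildtype spleen (left) and Dll1 spleen (right). Red points are Ms4a1, Plac8, Coch and Cd24a and bars are list medians; Ms4a1, Plac8 and Coch top their lists in wildtype spleen, and the erythroid medians are -0.19 and -0.48.

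Lists of other spleen cells are set beside these. T cell genes, which mark the other lymphocytes of the white pulp, lay above 0 for 9 of 11 tested in wildtype spleen and 8 of 12 in Dll1 spleen, with medians of 0.15 and 0.16. The T cell genes named by the rule were Cd8b1, at 0.15 in wildtype and 0.54 in Dll1 spleen, and Cd4, at -0.04 and 0.26. Erythroid genes went the other way, with 13 of 16 below 0 in wildtype spleen and 15 of 16 in Dll1 spleen and medians of -0.19 and -0.48. Leaving out 1 mouse gave medians of -0.36 (without mouse 2) to -0.11 (without mouse 4) in wildtype spleen and of -0.64 (without mouse 4) to -0.33 (without mouse 2) in Dll1 spleen. Rhd, a blood group gene, was at -0.64 and -0.83 and Hba-a1 at -0.37 and -1.06, each below 0 in 4 of 4 spleens of both cohorts. Hba-a1 was below the pool in the livers too, with the values given below. With the Cy3 arrays turned the erythroid medians were 0.10 and 0.05, and in wildtype and Dll1 spleen those of the B cell list 0.10 and 0.12, of the marginal zone list 0.26 and 0.17, of the follicle list 0.16 and 0.10 and of the T cell list 0.19 and 0.15. Whether lower erythroid RNA in the clones' samples has a part in the B cell and follicle ratios was not tested.

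Genes of neutrophils and other myeloid cells lay above 0 for 10 of 14 in wildtype spleen and for 5 of 14 in Dll1 spleen, with medians of 0.06 and -0.27, or 0.04 and 0.06 with the Cy3 arrays turned. The calprotectin gene S100a9 was at -0.82 and the granule gene Ngp at -0.62 in Dll1 spleen, each below 0 in 4 of 4 mice, and at -0.06 and 0.10 in wildtype spleen. Germinal centre genes had medians of -0.09 and 0.07 over 5 genes in wildtype and Dll1 spleen, and plasma cell genes -0.03 and 0.06 over 3. Polh, a DNA polymerase of somatic hypermutation, was at -0.18 ± 0.09 in wildtype spleen and 1.04 ± 0.70 in Dll1 spleen (SE), the latter from 3 mice of which 2 were above 0. Basp1 was at 0.19 and 0.69, Xbp1, a secretory transcription factor, at -0.03 and 0.60, and Sdc1, the plasma cell surface proteoglycan CD138, at -0.06 and -0.53 in wildtype and Dll1 spleen. Pancreatic acinar genes, listed because pancreas can be taken with the spleen, had medians of 0.09 and 0.12 over 8 genes, with Pnliprp2 at -0.08 and 0.47 and Ctrb1 at 0.43 ± 0.52 and 0.65 ± 0.38 (SE), above 0 in 2 of the 3 Dll1 spleens that gave it a value. None of these genes was called in Dll1 spleen by limma. Those named singly were picked for their small p in Dll1 spleen, so their difference from wildtype spleen is no finding.

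In the livers the 3 lists to which the 4 genes belong stayed near 0. The B cell median was 0.02 in the livers of both cohorts, the marginal zone median -0.01 in wildtype and 0.01 in Dll1 clones, and the follicle median -0.02 and -0.04, with 0 genes called in these lists. The erythroid median was -0.0029 in wildtype and 0.012 in Dll1 liver. Hba-a1 was nevertheless at -0.56 in wildtype liver, lower than in wildtype spleen, and at -0.33 in Dll1 liver. Of the 16 erythroid genes 1 was called lower in wildtype liver by limma, where 0.148% of all features were called.

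Cd24a had the same order of mice as 3 erythroid genes in Dll1 spleen, and of these only Slc4a1 shared its lowest pair of mice in wildtype spleen. In Dll1 spleen Hba-a1 was lowest in mouse 2 at -2.22, then mouse 3 at -1.13, mouse 1 at -0.66 and mouse 4 at -0.23, the same order as Cd24a. Slc4a1, the anion exchanger of the erythrocyte membrane, followed it too, at -1.41, -0.80, -0.29 and 0.05 in that order. In wildtype spleen Slc4a1 was at -0.50, -1.03, -0.46 and -1.07 in mice 1 to 4, lowest in mice 2 and 4, as was Cd24a. Hba-a1, at -0.03, -0.31, -0.44 and -0.71, and Alas2, the erythroid enzyme that begins haem synthesis, at 0.02, 0.01, -0.14 and -0.45, were lowest in mice 3 and 4 there. The erythroid median of wildtype spleen was nearest to 0 in mouse 2, at -0.22, the mouse with the lowest Cd24a. Over the 8 spleens Cd24a correlated at 0.98 with Slc4a1, at 0.67 with Hba-a1 and at 0.63 with Alas2, against 0.20 with Ms4a1. Correlations with the other erythroid genes of the list are not given. Over the 8 livers the correlations with Slc4a1, Hba-a1 and Alas2 were 0.16, 0.31 and 0.54, and that with Ms4a1 was -0.91. These are descriptions over 8 samples that share arrays, pools and dyes, and the part of the erythroid genes in the Cd24a ratios was not tested.

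**Figure D4:**
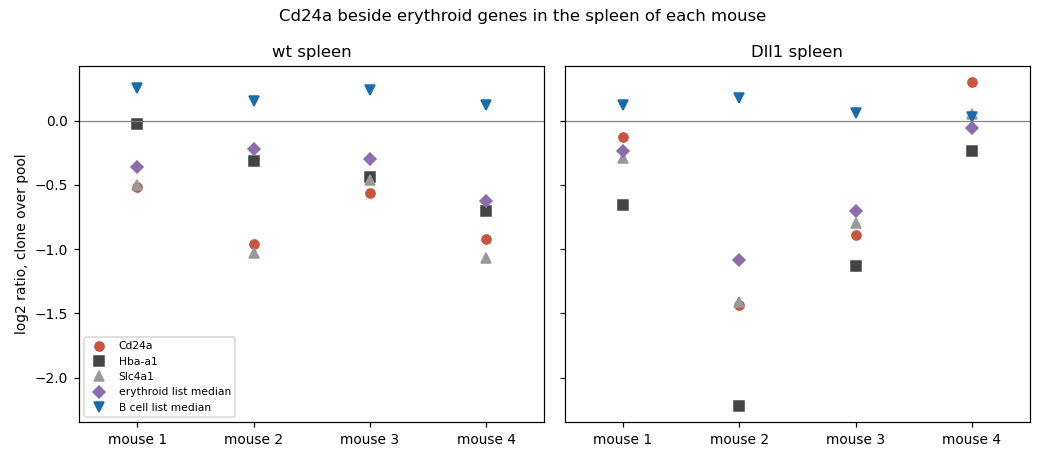
Log2 ratio of clone over pool (vertical axis) in the spleen of each mouse (horizontal axis) for Cd24a, Hba-a1, Slc4a1 and the medians of the erythroid and B cell lists, in wildtype (left) and Dll1 clones (right). In Dll1 spleen Cd24a and Slc4a1 have the same order of mice, lowest in mouse 2 at -1.44 and -1.41, while the B cell medians lie between 0.03 and 0.17.

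The genes with the most similar pattern were sought over all 16 mouse and organ values among 6735 named genes measured in all of them. Spleens and livers form separate clusters in Ms4a1 and Coch, which a correlation over the 16 values includes, so the value within the 8 spleens is given second, with no test. Ms4a1 was most like Coch (r = 0.92, 0.76 in spleens), Arg2, a mitochondrial arginase (0.90, 0.77), and Ifi30, a lysosomal reductase of antigen-presenting cells (0.89, 0.68). Coch was most like Ms4a1, Clu (0.92, 0.61) and Ifi30 (0.92, 0.56). Plac8 was most like Ms4a1 (0.87, 0.76), Glud1, glutamate dehydrogenase (0.83, 0.68), and Sparc, a matrix protein (0.82, 0.59).

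Cd24a had another set of neighbours. They were Fam210b, a mitochondrial protein of erythroid cells (r = 0.97, 0.98 in spleens), Pmvk, phosphomevalonate kinase (0.95, 0.93), and Uck1, a uridine-cytidine kinase (0.94, 0.95). All 3 lay below 0 in both spleens, Fam210b at -0.25 and -0.23, Pmvk at -0.38 and -0.27 and Uck1 at -0.73 and -0.50 in wildtype and Dll1 spleen. Within the spleens Cd24a correlated at 0.43 with Plac8 and at -0.0011 with Coch. Ms4a1, Plac8 and Coch correlated with each other at 0.61 to 0.76 there. The latter correlations include the difference between the cohorts, and the wildtype values in them chose the genes. No likeness from mouse to mouse is read from them.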

How the data were processed

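The deposited table holds 1 log2 ratio per probe and array for 32 arrays, made by the submitters with a normalization and filters not given in the sources used here. Both the base and the direction, clone over pool, were read from the values and titles; the direction is likely, not stated. The 4 genes and the gene lists were chosen with earlier results of these data known. Values over 9 in size, 1183 on 883 probes, were set to missing. Rows were named by the platform symbol 11 rows earlier, a shift found in the data. Probes of a gene were averaged on each array, then the 2 arrays of a mouse. Features needed values in 3 of 4 mice. Array medians lay between -0.067 and 0.079, and arrays were used as deposited. No spot intensities were used, so the number of arrays limits the precision.

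Each group was fitted alone with limma 3.58.1 in R 4.3.3 (lmFit, eBayes), with Benjamini-Hochberg adjustment over all features at 0.05; scripts were tested on simulated data. P-values measure the spread between 4 mice and not that of the pool. Named genes were the 4 members; the 4 list genes with the smallest p in Dll1 spleen for the B cell, marginal zone and follicle lists; the 2 with the smallest p for the T cell, erythroid, neutrophil, germinal centre, plasma cell and pancreatic lists; the 3 most correlated genes for each member; genes outside this rule (Cd79b, Cd22, Rbpj, Maml1, Hes1, Lfng, Dll1, Slc4a1 and Alas2) were picked for their roles with values in view. Both organs came from the same animals, which pairs them; deviations of 1 mouse correlated between organs at -0.0074 to 0.107. Alternatives changed the dye direction, naming, constants, centring, scaling, pooling of spread, probe averaging, array averaging, missing-value filter, pairing and mice.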

Additional observations from a re-analysis of the deposited data

Results flagged for a closer look

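The Coch ratio lay above 0 in all 4 Dll1 spleens and below 0 in all 4 Dll1 livers, a difference of 0.56 on the log2 scale. The limma test of that difference gave an adjusted p of 0.455. Under the alternatives that kept the dye direction and the naming it gave adjusted p values of 0.068 to 0.800. Of all features, 8.81% were above 0 in 4 of 4 Dll1 spleens and 9.9% below 0 in 4 of 4 Dll1 livers. The share with both was not counted, so how unusual the Coch pattern is cannot be said.

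Cd24a lay below 0 in all 4 wildtype spleens and above 0 in all 4 wildtype livers, a difference of -0.82 on the log2 scale. This difference was not tested, because the spleen values had chosen the gene. Turning the Cy3 arrays put the spleen mean at 0.04 and the liver mean at -0.23. Of all features, 7.06% were below 0 in 4 of 4 wildtype spleens and 11.7% above 0 in 4 of 4 wildtype livers. The share with both was not counted here either, and nothing is read from the Cd24a pattern.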

How the results depend on the processing

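The direction of the Cy3 arrays and the row naming decided most. With the Cy3 arrays turned, the means were 0.32 for Ms4a1, 0.32 for Plac8, 0.25 for Coch and 0.036 for Cd24a in wildtype spleen, and 0.040 for Cd24a in Dll1 spleen. In wildtype liver they were -0.48 for Ms4a1, 0.11 for Plac8, -0.63 for Coch and -0.23 for Cd24a, and in Dll1 liver 0.17 for Coch and -0.16 for Cd24a. The organ difference in Dll1 clones became -0.073 for Coch and 0.20 for Cd24a. With rows named by their own number, which reads other probes, the means were -0.23 for Ms4a1 and -0.55 for Plac8 in wildtype spleen, -0.66 for Plac8 in Dll1 spleen, -0.82 for Plac8 (adjusted p = 0.0043) and 0.0063 for Coch in wildtype liver, -0.48 for Plac8 and -0.087 for Cd24a in Dll1 liver, and -0.18 for the organ difference of Plac8. Scaling the arrays put Plac8 in Dll1 liver at -0.0033. Leaving out 1 mouse gave -0.036 to 0.025 for Plac8 and -0.094 to 0.029 for Coch in wildtype liver, and -0.067 to 0.054 for Plac8 and -0.0067 to 0.20 for Cd24a in Dll1 liver. Of these, Ms4a1, Coch and Cd24a in wildtype liver with the Cy3 arrays turned, and Plac8 there under the other naming, passed the threshold. In 194 other refits, the tested values of the 4 genes kept their direction and their side of the threshold.

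The 25 calls in wildtype liver became 9608 with the Cy3 arrays turned, 3 with constants kept, 1 with scaled arrays, 14 with a spread shared over groups, 51 with probes fitted singly, 82 with single arrays, and 0, 42, 4 and 6 without mouse 1, 2, 3 and 4. Dll1 liver had 19 calls with the Cy3 arrays turned. The organ difference had 13 with a shared spread, 1 with single arrays, and 0 with the mouse as a block, which pairs the organs by animal. In Dll1 spleen 0 were called under any alternative run. Leaving out 1 mouse moved list medians in wildtype spleen to 0.14 to 0.20 (B cell), 0.02 to 0.07 (marginal zone) and 0.09 to 0.13 (follicle), and in Dll1 spleen to 0.09 to 0.18, 0.01 to 0.08 and 0.08 to 0.15.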
